A study of Homo sapiens with 12 samples.

Results

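The lysosome, the V-ATPase proton pump that acidifies it and the autophagy machinery that delivers cargo to it were followed through 39 genes in 2 colorectal cancer cell lines grown with or without added lactate. The genes were chosen by name from the deposited table of read counts, which lists 54261 gene symbols. The rule itself uses no measured value, but the choice was made with earlier results of these data known. They comprise 10 lysosomal enzymes and activators, 8 genes of the lysosomal membrane and of cholesterol export, 7 V-ATPase subunits, 6 autophagy genes, 3 transcription factors of the MiT/TFE family and 5 genes of the folliculin and Rag GTPase module. All 39 passed the filter on low counts and were among the 17572 genes tested.

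Lysosomes degrade proteins, lipids and sugars with enzymes that work at acid pH, and the V-ATPase pumps the protons that keep this pH low. Autophagy encloses cytoplasm in a double membrane that fuses with the lysosome. Many genes of both systems are targets of TFEB and its relatives TFE3 and MITF, which bind an E-box called the CLEAR element. When amino acids are plentiful, Rag GTPases on the lysosome recruit mTORC1 and the factors themselves, mTORC1 phosphorylates the factors, and they stay in the cytoplasm. Folliculin, with its partners FNIP1 and FNIP2, acts on the Rag GTPases RRAGC and RRAGD in this step.

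RNA sequencing was done on 4 groups of 3 libraries each, described by the submitters as biological replicates. The groups were DLD1 with lactate, DLD1 without lactate, SW480 with lactate and SW480 without lactate, and the untreated libraries are called controls here. Both are established human colorectal cancer cell lines, and the labels name no genetic change in either. The sources used here give neither the lactate dose nor the length of treatment nor the culture medium. Unless stated otherwise, each p-value comes from a model fitted to all 12 libraries, with 3 libraries a group. It weighs an effect against the spread between these libraries within the groups of both lines, not only of the line compared.

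Library totals ran from 12302311 to 22662063 counts. Levels are given as CPM, the count scaled to the total count of its library, and the 39 genes together took 0.478% to 0.492% of all counts in the DLD1 lactate libraries, 0.360% to 0.487% in the DLD1 controls, 0.522% to 0.548% in the SW480 lactate libraries and 0.511% to 0.520% in the SW480 controls. The libraries labelled DLD1 carried colorectal epithelial markers, with EPCAM at 656 to 716 CPM and CDH1 at 637 to 911 CPM. The libraries labelled SW480 carried KRT8 at 826 to 1410 CPM and KRT18 at 433 to 795 CPM but had EPCAM at 0.356 to 1.14 CPM and CDH1 at 1.19 to 1.54 CPM. KRT19 was at 91.4 to 167 CPM in the SW480 libraries and at 579 to 1853 CPM in the DLD1 libraries. CDX2 was at 0 to 0.289 CPM in the SW480 libraries and at 94.8 to 183 CPM in the DLD1 libraries. VIL1 was at 0 to 0.142 CPM in the SW480 libraries and at 7.97 to 12.7 CPM in the DLD1 libraries. KRT20 was low in both, at 0.666 to 0.893 CPM in the DLD1 libraries and at 0 in the SW480 libraries. The 6 fibroblast markers summed to 8.64 to 11.9 CPM in the DLD1 libraries and to 243.5 to 261.5 CPM in the SW480 libraries. COL3A1, at up to 154 CPM in the SW480 libraries, and DCN, at 57.0 to 87.6 CPM, made up most of that sum, and COL1A1 was at 48.3 to 49.2 CPM in the SW480 lactate libraries and 19.1 to 22.9 CPM in the SW480 controls. COL1A2 and PDGFRB stayed at or under 1.29 and 3.49 CPM in the SW480 libraries, and PDGFRB was at 2.41 to 6.96 CPM in the DLD1 libraries. The identity of the cells behind the SW480 label and the part of these markers in the lactate results were not tested, and SW480 below means the label. DLD1 control 2 and DLD1 control 3 stood apart from their group: over 12013 genes, the log2 difference of each from the other libraries of its group had an SD of 0.537 and 0.443, against at most 0.261 for any library outside the DLD1 controls. In bulk RNA, fewer cells of a type and less RNA per cell cannot be told apart.

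Promoter sequences from RefSeq on GRCh38.p14, 250 bases before to 50 bases after a gene's start, were found for 29 of the 39 genes. The E-box core CACGTG, which is the same on both strands, lies in 9 of these 29 promoters (31.0%), against 7.43% of all 27305 promoters in the table. The CLEAR core TCACGTGA, also the same on both strands, contains the E-box core and lies in 5 of the 29 (17.2%, against 1.04%). The M-box TCATGTG, searched on both strands, lies in 4 (13.8%, against 2.99%). Many genes of these systems are known targets of the factors that bind the CLEAR element. A higher share of it and of its E-box core thus follows from the choice of genes and is no result of these data. Of the 5 promoters printed here, GAA, MCOLN1 and LAMP1 are those of the 29 with more than 1 CLEAR core, and NPC1 and CD68 are the genes with the largest lactate effects in SW480. Capitals mark the CLEAR core, or the E-box core where it stands without the CLEAR core. The GAA window lies at chr17:80101331-80101630 (+), that of MCOLN1 at chr19:7522374-7522673 (+), LAMP1 at chr13:113296989-113297288 (+), NPC1 at chr18:23586457-23586756 (-) and CD68 at chr17:7579388-7579687 (+), each written 5′ to 3′ on the strand of its gene.
GAA: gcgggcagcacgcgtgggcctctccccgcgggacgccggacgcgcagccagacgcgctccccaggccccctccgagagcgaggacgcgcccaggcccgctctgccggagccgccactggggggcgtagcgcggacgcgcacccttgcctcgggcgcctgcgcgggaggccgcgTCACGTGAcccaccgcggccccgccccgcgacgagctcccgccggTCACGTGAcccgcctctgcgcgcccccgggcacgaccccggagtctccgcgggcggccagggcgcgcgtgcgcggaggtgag
MCOLN1: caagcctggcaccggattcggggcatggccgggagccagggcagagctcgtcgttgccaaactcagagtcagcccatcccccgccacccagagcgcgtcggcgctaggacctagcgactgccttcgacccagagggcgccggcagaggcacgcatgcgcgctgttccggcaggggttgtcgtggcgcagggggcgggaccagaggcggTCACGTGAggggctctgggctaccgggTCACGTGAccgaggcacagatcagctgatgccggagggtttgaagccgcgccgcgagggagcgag
LAMP1: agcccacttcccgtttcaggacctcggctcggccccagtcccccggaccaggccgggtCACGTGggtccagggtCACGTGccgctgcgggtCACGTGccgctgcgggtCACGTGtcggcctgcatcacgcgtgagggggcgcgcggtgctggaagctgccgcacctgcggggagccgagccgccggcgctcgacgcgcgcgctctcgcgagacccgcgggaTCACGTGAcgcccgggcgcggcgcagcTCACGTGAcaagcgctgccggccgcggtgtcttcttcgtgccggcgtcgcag
NPC1: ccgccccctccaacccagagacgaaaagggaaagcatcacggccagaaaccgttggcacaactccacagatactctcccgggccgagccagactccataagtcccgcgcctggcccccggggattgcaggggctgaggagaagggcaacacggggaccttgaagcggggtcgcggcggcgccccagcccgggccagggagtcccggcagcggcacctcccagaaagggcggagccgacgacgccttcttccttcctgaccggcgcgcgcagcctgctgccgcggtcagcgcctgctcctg
CD68: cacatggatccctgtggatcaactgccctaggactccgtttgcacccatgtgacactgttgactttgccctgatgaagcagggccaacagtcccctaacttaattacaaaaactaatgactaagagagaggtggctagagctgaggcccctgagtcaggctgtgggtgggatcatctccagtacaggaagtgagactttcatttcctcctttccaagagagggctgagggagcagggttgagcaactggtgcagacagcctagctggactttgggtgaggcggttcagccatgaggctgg
GAA and MCOLN1 hold the CLEAR core 2 times each. LAMP1 holds the E-box core 6 times, 2 of them within a CLEAR core. None of these motifs occurs in the printed windows of NPC1 and CD68, which says only that these letters are not there.

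Lactate in SW480 changed a limited set of the genes, and most of those that changed were higher. A gene is called where the adjusted p of edgeR's quasi-likelihood test is under 0.05, and 8 of the 39 genes were (20.5%), 7 higher and 1 lower, against 12.4% of all 17572 tested genes, 6.83% higher and 5.59% lower. The median log2 fold change of the 39 was 0.15, against -0.01 over all tested genes, and 27 of the 39 were positive. At an unadjusted p under 0.05 there were 14 of the 39, against 27.3% of all genes. The 3 lactate libraries lay above all 3 controls for 15 of the 39 and below them for 6, where 18.9% and 21.9% of all tested genes did so. Of the 8 called genes, 6 have a promoter in the table and 0 of those 6 hold the E-box core. Of the 31 genes not called, 23 have a promoter and 9 of those hold it, where 7.4% of all promoters do. These 6 promoters are too few to compare the shares, and the part of the motif in the lactate effect was not tested.

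**Figure D1:**
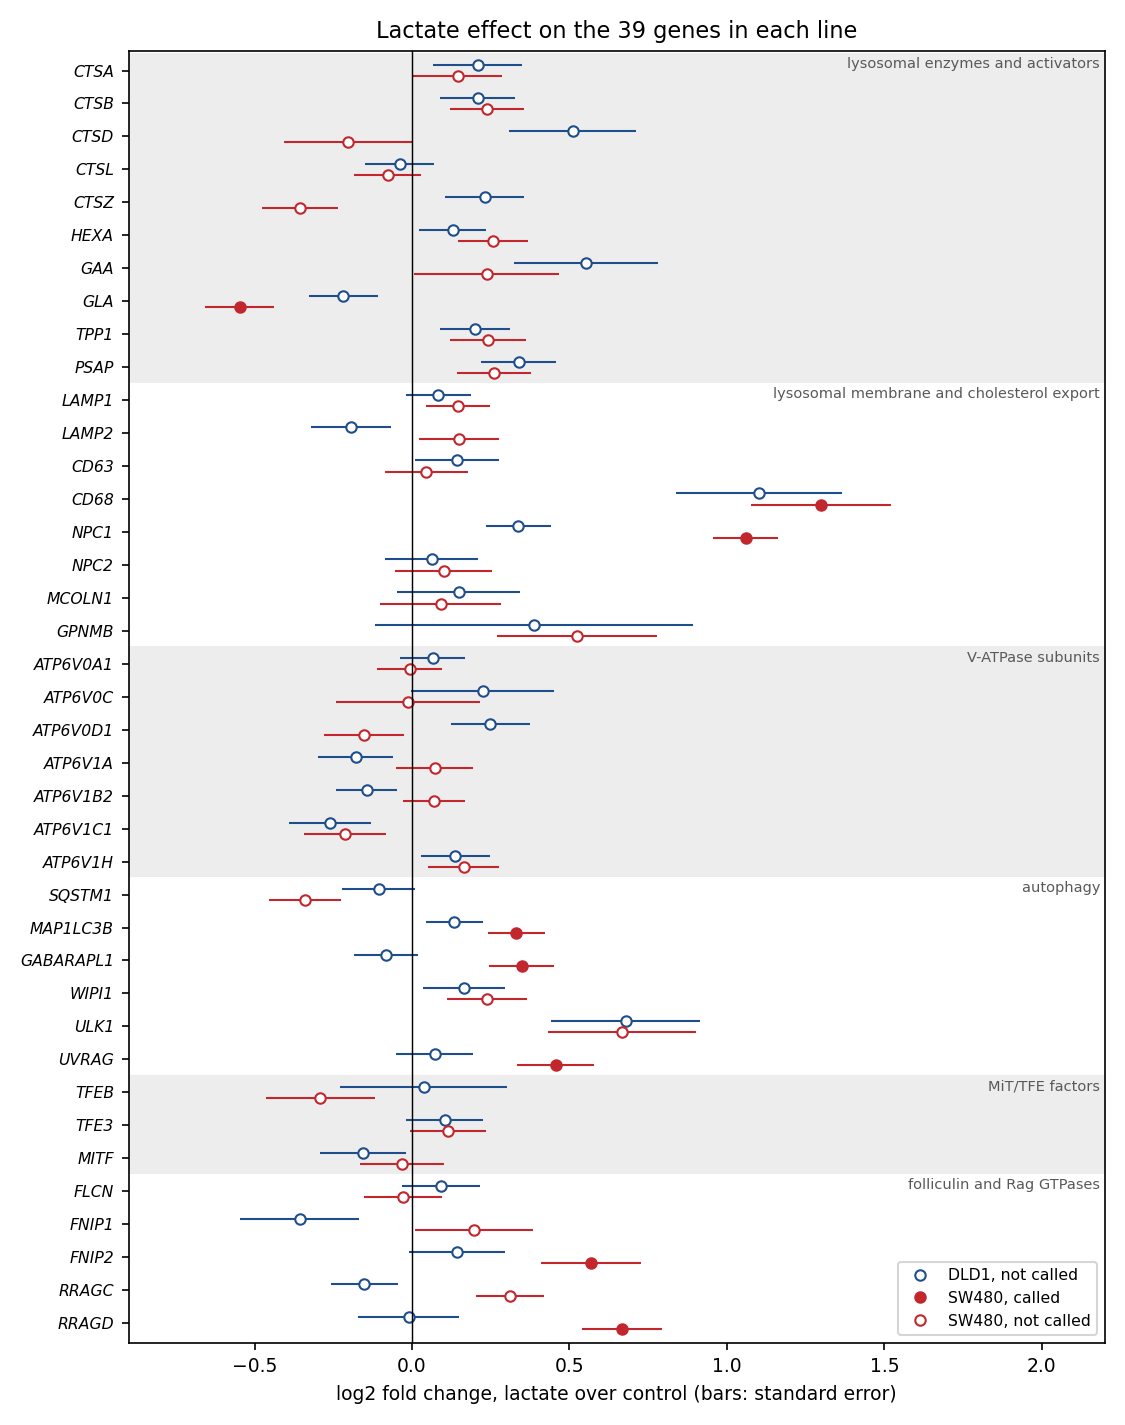
Lactate effect on each of the 39 genes in DLD1 (blue, upper mark) and SW480 (red, lower mark), as log2 fold change of lactate over control with its standard error, grouped by role. Filled marks are called genes: there are 8 in SW480 and 0 in DLD1, and CD68 and NPC1 stand furthest to the right in SW480.

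The lysosomal membrane and cholesterol export genes held the changes of greatest size. NPC1, at chr18:23506184-23586506, encodes the membrane protein that moves cholesterol out of the lysosome. It had 148, 151 and 169 CPM in the SW480 lactate libraries, against 67.8, 82.9 and 77.3 CPM in the SW480 controls. Every lactate library was above every control, and NPC1 rose 2.08-fold (log2 1.06 ± 0.10 SE, adjusted p = 5.97e-05). CD68, at chr17:7579638-7582111, encodes a heavily glycosylated late endosomal and lysosomal membrane protein used as a marker of macrophages. Its level was 97.2, 104 and 85.6 CPM with lactate, against 30.8, 50.2 and 37.8 CPM in the controls. The groups did not overlap, and CD68 rose 2.46-fold (log2 1.30 ± 0.22 SE, adjusted p = 0.00218).

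Beside CD68, the 6 macrophage markers were near the bottom of the scale in SW480. They summed to 6.98 to 8.99 CPM with lactate and 6.88 to 8.05 CPM in the controls, CD14 made up most of that, and PTPRC stayed at or under 0.258 CPM. In the annotation, 81.7% of the exon bases of CD68 are shared with an unnamed transcript on the same strand, and how reads of the shared bases were counted is not given in the sources used here. The next largest shares on the same strand are 57.5% for ATP6V0C, 41.7% for CTSD and 22.9% for RRAGC. The same limit holds for these genes.

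No other gene of the membrane group was called in SW480 by the edgeR fit used throughout, although all 8 had a positive log2 fold change. After removal of a GC content and length trend, LAMP2 was called higher (edgeR, adjusted p = 0.0390), where 28.5% of all genes were called. CD63, a tetraspanin of late endosomes and the most abundant gene of the group, had 370, 381 and 341 CPM with lactate and 361, 373 and 343 CPM in the controls (log2 0.05 ± 0.13 SE). LAMP1 and LAMP2 encode the glycoproteins that coat the inner face of the membrane. LAMP1 had 190, 173 and 171 CPM with lactate and 164, 166 and 161 CPM in the controls (log2 0.15 ± 0.10 SE), and LAMP2 had 188, 189 and 226 CPM with lactate and 176, 183 and 193 CPM in the controls (log2 0.15 ± 0.13 SE). NPC2, the soluble protein that hands cholesterol to NPC1, was at 0.10 ± 0.15 and MCOLN1, the calcium channel of the lysosome, at 0.09 ± 0.19. GPNMB, a transmembrane glycoprotein known as a target of the MiT/TFE factors, had 3.81, 5.06 and 5.76 CPM with lactate and 3.22, 3.01 and 4.05 CPM in the controls. Its groups overlapped, and its log2 fold change of 0.52 ± 0.25 was not called (adjusted p = 0.202). The partner of NPC1 in cholesterol transfer did not pass the test.

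Among the 10 enzymes and activators, GLA alone was called by the edgeR fit used throughout, and it fell, where 12.4% of all tested genes were called. GLA, at chrX:101397803-101407925, encodes alpha-galactosidase A, which removes terminal galactose from glycolipids. The gene had 70.2, 68.2 and 70.3 CPM in the SW480 lactate libraries, against 112, 96.6 and 101 CPM in the SW480 controls. All lactate libraries were below all controls, and GLA fell 1.46-fold (log2 -0.55 ± 0.11 SE, adjusted p = 0.00535). PSAP, the precursor of the saposins that help hydrolases reach their lipids, was the most abundant of the group at 988, 930 and 851 CPM with lactate and 752, 801 and 799 CPM in the controls. Its groups did not overlap either, but its log2 fold change of 0.26 ± 0.12 was not called (adjusted p = 0.172). CTSB, a cysteine protease, had 337, 349 and 298 CPM with lactate and 263, 299.9 and 286 CPM in the controls (log2 0.24 ± 0.12, adjusted p = 0.212). CTSD, an aspartic protease, had 250.5, 242 and 191 CPM with lactate and 268, 267 and 267 CPM in the controls (log2 -0.20 ± 0.20 SE). CTSZ, the carboxypeptidase cathepsin Z, was lower in all 3 lactate libraries without being called (log2 -0.36 ± 0.12, adjusted p = 0.0696). The other 5, CTSA, CTSL, HEXA, GAA and TPP1, had log2 fold changes from -0.08 to 0.26. With edgeR on only the 6 SW480 libraries, PSAP, CTSB and HEXA were called higher (adjusted p = 0.0194, 0.0302 and 0.0238). CTSZ was called lower there (adjusted p = 0.00159), where 30.2% of all genes were called. After removal of a GC content and length trend, CTSD was called lower (edgeR, adjusted p = 0.00918), where 28.5% of all genes were called. The group moved in no common direction, with 6 log2 fold changes positive and 4 negative.

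In the folliculin and Rag GTPase module, 2 of 5 genes were called and both rose, where 6.83% of all tested genes were called higher. RRAGD, at chr6:89364616-89412273, encodes the Rag GTPase D. It had 68.8, 70.8 and 77.8 CPM in the SW480 lactate libraries, against 38.99, 48.9 and 51.0 CPM in the SW480 controls. RRAGD rose 1.59-fold with no overlap of the groups (log2 0.67 ± 0.13 SE, adjusted p = 0.00407). FNIP2, at chr4:158769026-158908050, a folliculin partner, had 26.8, 27.4 and 28.5 CPM with lactate and 18.1, 17.1 and 21.4 CPM in the controls. That is a rise of 1.48-fold (log2 0.57 ± 0.16 SE, adjusted p = 0.0318). RRAGC, the GTPase closest in function to RRAGD, had 34.8, 36.7 and 42.8 CPM with lactate and 27.9, 31.2 and 34.3 CPM in the controls, and was not called (log2 0.31 ± 0.11, adjusted p = 0.0784). FNIP1, the other folliculin partner, had 51.8, 53.1 and 70.4 CPM with lactate and 49.5, 48.9 and 56.3 CPM in the controls (log2 0.20 ± 0.19). FLCN, the folliculin gene itself, had 41.7, 44.0 and 43.7 CPM with lactate and 43.9, 47.3 and 42.9 CPM in the controls (log2 -0.03 ± 0.12). The called gene of each related pair was thus RRAGD for the GTPases and FNIP2 for the partners, and whether it differed from its relative was not tested.

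Autophagy had 3 of 6 genes called, all higher, by 1.26-fold to 1.37-fold, where 6.83% of all tested genes were called higher. MAP1LC3B (chr16:87392336-87404774) and GABARAPL1 (chr12:10212877-10223128) encode proteins of the ATG8 family, which are attached to lipids of the growing autophagosome. MAP1LC3B had 121, 129 and 141 CPM in the SW480 lactate libraries, against 103, 103 and 110 CPM in the SW480 controls (log2 0.33 ± 0.09 SE, adjusted p = 0.0280). GABARAPL1 had 114, 121 and 121 CPM with lactate and 93.1, 102 and 88.7 CPM in the controls (log2 0.35 ± 0.10 SE, adjusted p = 0.0390). For both, the lowest lactate library was above the highest control. Reads could be split with near-identical copies, but those were scarce: MAP1LC3B2 held 1.27 to 3.20 CPM and GABARAPL3 at most 0.121 CPM in any library.

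UVRAG (chr11:75815210-76144232), a partner of the lipid kinase complex that starts and matures autophagosomes, had 24.9, 25.7 and 30.3 CPM with lactate and 20.9, 18.4 and 20.4 CPM in the controls. The groups did not overlap, and UVRAG rose 1.37-fold (log2 0.46 ± 0.12 SE, adjusted p = 0.0253). ULK1, the kinase that triggers autophagy, had 158, 168 and 149 CPM with lactate and 89.2, 105 and 110 CPM in the controls. Its log2 fold change of 0.67 ± 0.24 equalled that of RRAGD in size, but with the larger error it was not called (adjusted p = 0.0795). That error is the one of the fit over all 12 libraries. With edgeR on only the 6 SW480 libraries the value was 0.68 ± 0.08 (adjusted p = 2.33e-05), where 30.2% of all genes were called. Without DLD1 control 3 it was 0.67 ± 0.15 (adjusted p = 0.00743), where 17.1% of all genes were called. ULK1 was called under 8 of 21 alternatives, DESeq2 among them, with adjusted p from 1.04e-05 to 0.280. SQSTM1, the cargo receptor p62 that is itself degraded by autophagy, had 651, 652 and 630 CPM with lactate and 886, 773 and 830 CPM in the controls. All lactate libraries were lower, and the log2 fold change of -0.34 ± 0.12 was not called (adjusted p = 0.0691). WIPI1, which binds the lipid made by that complex, was at log2 0.24 ± 0.13 (adjusted p = 0.247). After removal of a GC content and length trend it was called higher (edgeR, adjusted p = 0.0391), where 28.5% of all genes were called. In the annotation, 20.7% of the exon bases of SQSTM1 lie opposite a gene on the other strand. The share is 24.3% for WIPI1, opposite ARSG, and 17.7% for the enzyme gene CTSA, opposite NEURL2. The sources used here do not state whether counting used strand, so reads of those neighbours may be included.

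**Figure D2:**
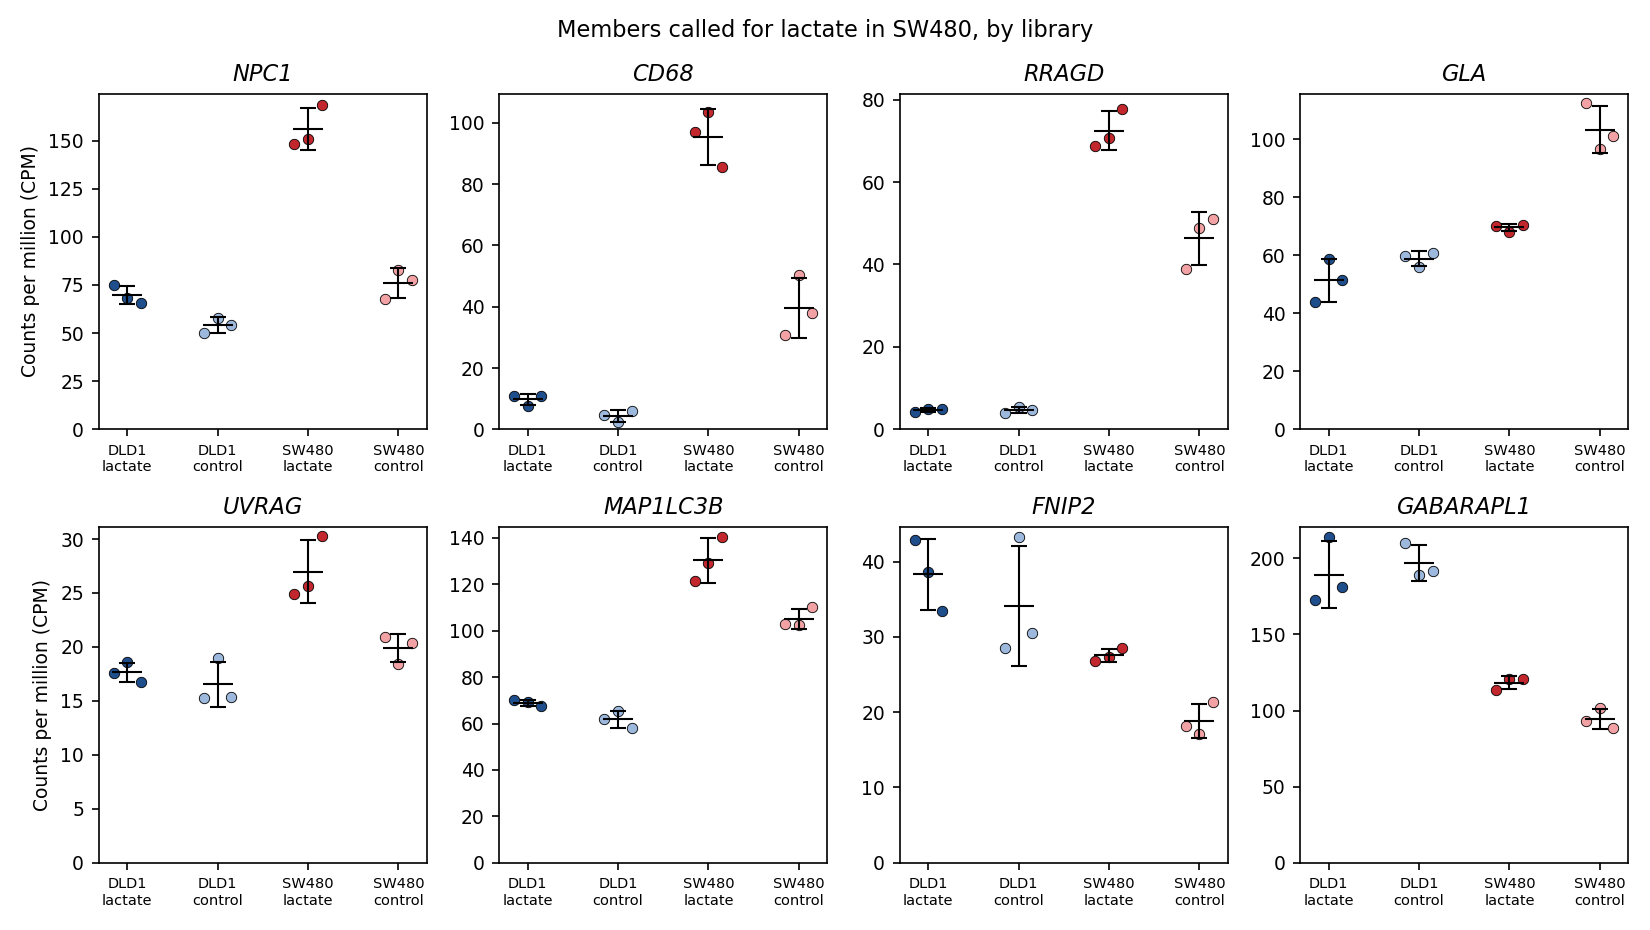
CPM in each library for the 8 genes called for lactate in SW480, in 4 groups (DLD1 lactate, DLD1 control, SW480 lactate, SW480 control), with points for libraries and bars for the mean and SD of the 3. In SW480 the lactate points lie above all control points for 7 genes and below them for GLA, and RRAGD and CD68 reach at most 5.43 and 10.7 CPM in any DLD1 library.

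The V-ATPase had 0 of 7 subunits called in SW480 with the edgeR fit used throughout, 0 at an unadjusted p under 0.05 and 0 with DESeq2. Of all tested genes 12.4%, 27.3% and 16.2% were, in that order, and 7 genes are too few to show a smaller share. Its log2 fold changes ran from -0.21 to 0.16 with a median of -0.01. ATP6V1A, the catalytic subunit of the cytosolic V1 sector, had 92.9, 102 and 112 CPM with lactate and 98.7, 99.6 and 98.2 CPM in the controls. ATP6V1B2, the other subunit of the V1 head, had 70.2, 72.5 and 80.5 CPM with lactate and 70.0, 72.0 and 74.0 CPM in the controls. ATP6V1C1, a V1 stalk subunit, had 90.8, 95.5 and 106 CPM with lactate and 106, 120 and 118 CPM in the controls. For all 3 the groups overlapped. With edgeR on only the 6 SW480 libraries ATP6V1C1 was called lower (log2 -0.21 ± 0.07, adjusted p = 0.0421), where 30.2% of all genes were called. It was also called lower after removal of a GC content and length trend (log2 -0.24 ± 0.06, adjusted p = 0.00771), where 28.5% of all genes were called. Of the membrane sector, ATP6V0C, which forms the proton-carrying ring, was at log2 -0.01 ± 0.23, ATP6V0A1 at -0.01 ± 0.10 and ATP6V0D1 at -0.15 ± 0.13. For ATP6V0D1 all lactate libraries were below all controls. The V1 subunit ATP6V1H was at 0.16 ± 0.11.

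Of the 3 MiT/TFE factor genes, 0 were called in SW480 by the edgeR fit used throughout or by DESeq2, and 0 had an unadjusted p under 0.05 in edgeR. The shares of all tested genes were 12.4%, 16.2% and 27.3%, in that order, and 3 genes are too few to show a smaller share. TFEB had 8.67, 8.27 and 7.62 CPM in the SW480 lactate libraries, against 10.5, 9.92 and 10.2 CPM in the SW480 controls, which did not overlap (log2 -0.29 ± 0.17 SE, adjusted p = 0.304). TFE3 had 141, 137 and 141 CPM with lactate and 131, 129 and 133 CPM in the controls (log2 0.11 ± 0.12, adjusted p = 0.581). MITF had 32.9, 31.7 and 41.3 CPM with lactate and 38.9, 31.6 and 38.99 CPM in the controls (log2 -0.03 ± 0.13, adjusted p = 0.913). These are transcript levels and do not show where the proteins are in the cell, which is how this family is mainly regulated. Compared per kilobase of transcript, TFE3 was the most abundant of the family, at 40.9 ± 0.699 CPM per kb in the SW480 lactate libraries and 38.4 ± 0.543 in the SW480 controls (SD, n = 3 each). MITF was at 7.33 ± 1.08 CPM per kb with lactate and 7.58 ± 0.880 in the controls, and TFEB at 3.48 ± 0.226 CPM per kb with lactate and 4.33 ± 0.121 in the controls. The order TFE3, MITF, TFEB held beyond the spread in both groups.

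The SW480 calls differ in how firmly they stand. NPC1, CD68, RRAGD and GLA were called under all 21 alternatives tried, at adjusted p values of at most 9.84e-04, 0.0235, 0.0350 and 0.0455. UVRAG and FNIP2 were called under 16, MAP1LC3B under 15 and GABARAPL1 under 13, and leaving out SW480 lactate 2, SW480 lactate 3 or SW480 control 1 left 4 of the 39 genes called in each case, where 4.75%, 6.7% and 3.83% of all genes were called. Leaving out SW480 control 2 or SW480 control 3 left 5, where 8.94% and 6.76% of all genes were called. DESeq2 called 12 of the 39 in SW480, against 16.2% of all genes: the 8 above and ULK1, SQSTM1, CTSZ and RRAGC. Over the 21 alternatives, SQSTM1 and CTSZ were called under 7 each and RRAGC under 5, with adjusted p up to 0.260, 0.261 and 0.319.

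In DLD1, the edgeR fit used throughout called 0 of the 39 genes for lactate, where it called 67 of the 17572 tested genes (0.381%). DESeq2 called CD68 and NPC1, against 3.89% of all genes. With edgeR, 6 of the 39 had an unadjusted p under 0.05 (CTSD, GAA, PSAP, CD68, NPC1 and ULK1), against 18.5% of all genes. The median log2 fold change of the 39 was 0.13, against 0.02 over all tested genes. That median was 0.04 without DLD1 control 2, 0.19 without DLD1 control 3 and 0.04 after removal of a GC and length trend from every library, where those over all genes were 0.01, 0.04 and 0. Lactate libraries lay above all controls for 4 genes (PSAP, CD68, NPC1 and MAP1LC3B) and below them for RRAGC, where 10.7% and 8.06% of all tested genes did so.

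CD68 had the largest DLD1 value. It had 10.7, 7.74 and 10.7 CPM in the DLD1 lactate libraries, against 4.76, 2.35 and 6.04 CPM in the DLD1 controls. The groups did not overlap, and the log2 fold change of 1.10 ± 0.26 was not called (adjusted p = 0.0980). The 6 macrophage markers summed to 4.80 to 5.57 CPM with lactate and 2.35 to 4.79 CPM in the controls, PTPRC was at 0 in all 6 libraries, and their part in the CD68 value was not tested. NPC1 had 74.8, 68.1 and 65.8 CPM with lactate and 50.1, 58.0 and 54.3 CPM in the controls, a log2 fold change of 0.34 ± 0.10 (adjusted p = 0.150). ULK1 had 108, 70.5 and 95.0 CPM with lactate and 50.2, 34.1 and 84.2 CPM in the controls (log2 0.68 ± 0.24, adjusted p = 0.172), and its groups overlapped.

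Lysosomal enzymes showed how far the DLD1 controls lay apart. CTSD, the most abundant of the 39 genes in DLD1 per kilobase, had 1090, 899 and 1044 CPM in the DLD1 lactate libraries, against 693, 440.2 and 968 CPM in the DLD1 controls (log2 0.51 ± 0.20, adjusted p = 0.212). GAA, the acid glucosidase that breaks down glycogen, had 116, 87.5 and 115 CPM with lactate and 66.8, 45.8 and 102 CPM in the controls (log2 0.55 ± 0.23, adjusted p = 0.226). PSAP had 522, 546 and 540 CPM with lactate and 428, 336 and 489 CPM in the controls (log2 0.34 ± 0.12, adjusted p = 0.173). In each of these DLD1 control 2 was lowest and DLD1 control 3 highest. The V-ATPase ring gene ATP6V0C showed the same order, with 81.8, 63.1 and 85.2 CPM with lactate and 61.2, 37.6 and 95.2 CPM in the controls (log2 0.23 ± 0.23).

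The order of the DLD1 controls followed the base composition of the transcripts. Transcript GC content of the 39 genes ran from 37.7% for LAMP2 to 64.2% for ULK1. Across the 39 genes, the log2 difference of DLD1 control 2 from the other controls had a Spearman correlation of -0.884 with GC content (-0.791 over 12013 genes), and that of DLD1 control 3 one of 0.856 (0.822). For example, control 2 differed from the mean of controls 1 and 3 by a log2 of -0.88 for CTSD, and by 0.78 for FNIP1 and 0.50 for LAMP2. The lactate effect itself correlated with GC content at 0.616 across the 39 genes in DLD1 (0.567 over 15385 genes) and at -0.233 in SW480 (0.0639). The DLD1 effect minus the SW480 effect correlated with GC content at 0.724 across the 39 genes (0.342 over 15385 genes). These correlations are descriptions across genes of the same libraries. The part of GC content in the lactate effects and in their difference was not tested. Without DLD1 control 3, 14 of the 39 genes were called in DLD1, 12 higher and 2 lower, where 21% of all genes were called, and ULK1 had a log2 fold change of 1.08 ± 0.18 (adjusted p = 0.00440). After removal of the GC and length trend from every library, 1 was called, SQSTM1, with a log2 fold change of -0.33, where 3.28% of all genes were called.

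**Figure D3:**
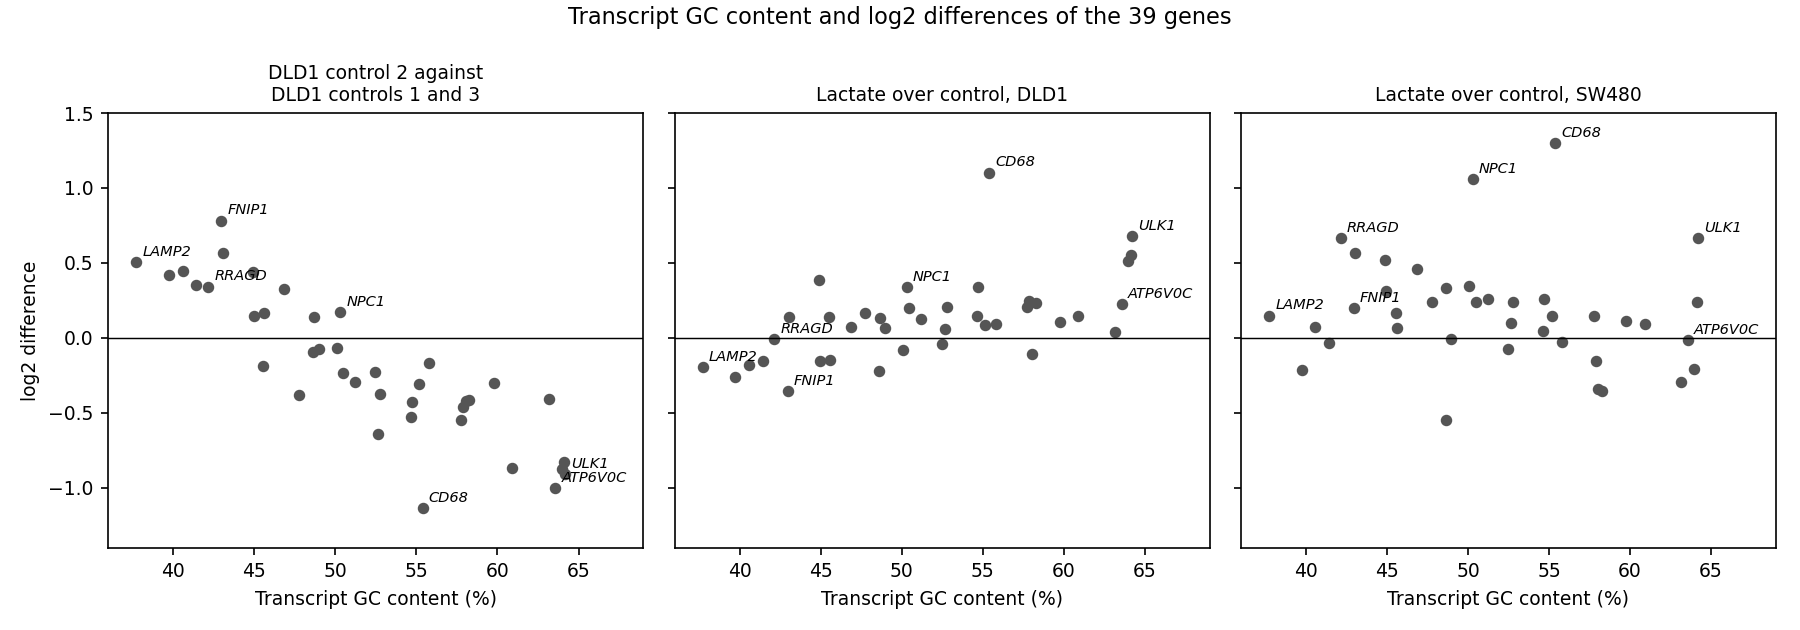
Transcript GC content (percent) of the 39 genes against the log2 difference of DLD1 control 2 from the mean of DLD1 controls 1 and 3 (left), the lactate effect in DLD1 (middle) and the lactate effect in SW480 (right), 1 point a gene. The left panel falls with GC content, the middle panel rises, and CD68 and NPC1 lie above the other genes of similar GC content in the middle and right panels.

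Whether lactate acted differently in the lines was tested as the DLD1 effect minus the SW480 effect. NPC1 was called, 1 of 39 genes (2.56%), against 0.728% of all tested genes. Its effect was log2 0.34 ± 0.10 in DLD1 and 1.06 ± 0.10 in SW480, a difference of -0.72 ± 0.15 (adjusted p = 0.0373). That call was lost in 8 of the 12 fits that left out 1 library, with adjusted p up to 0.141, among them every fit without a DLD1 lactate library. The next 3 differences in size were those of CTSD, RRAGD and CTSZ, and none of them was called by the edgeR fit used throughout. The differences of both cathepsin genes had the opposite sign to that of NPC1. Transcript GC content was 64.0% for CTSD, 58.3% for CTSZ and 42.1% for RRAGD, and its part in these differences was not tested. CTSD had log2 fold changes of 0.51 in DLD1 and -0.20 in SW480, a difference of 0.71 ± 0.29 (adjusted p = 0.231). CTSZ had 33.0, 32.5 and 35.4 CPM in the DLD1 lactate libraries, against 27.4, 22.7 and 34.4 CPM in the DLD1 controls (log2 0.23 ± 0.13), and its effect differed from that in SW480 by 0.59 ± 0.18 (adjusted p = 0.127). RRAGD had 4.18, 4.90 and 4.99 CPM in the DLD1 lactate libraries and 3.97, 5.43 and 4.69 CPM in the DLD1 controls, a log2 fold change of -0.01 ± 0.16, and the difference from SW480 was -0.68 ± 0.20 (adjusted p = 0.128). Over 20 alternatives, the difference was called under 4 for CTSD, 4 for CTSZ and 1 (DESeq2) for RRAGD, with adjusted p from 0.00197 to 0.472, from 0.0106 to 0.312 and from 0.0414 to 0.318. CD68 had log2 fold changes of 1.10 in DLD1 and 1.30 in SW480, and their difference of -0.20 had a wide standard error of 0.35 (adjusted p = 0.804). GLA had 44.0, 58.6 and 51.4 CPM in the DLD1 lactate libraries, against 59.8, 55.8 and 60.8 CPM in the DLD1 controls (log2 -0.22 ± 0.11, adjusted p = 0.296), and its effect differed from that in SW480 by 0.33 ± 0.15 (adjusted p = 0.299).

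The other genes called in SW480 had small values in DLD1. MAP1LC3B had 70.2, 69.2 and 67.6 CPM in the DLD1 lactate libraries, against 62.1, 65.3 and 58.0 CPM in the DLD1 controls (log2 0.13 ± 0.09). GABARAPL1 had 173, 214 and 181 CPM with lactate and 210, 189 and 192 CPM in the controls (log2 -0.08 ± 0.10). UVRAG had 17.6, 18.6 and 16.8 CPM with lactate and 15.3, 19.0 and 15.4 CPM in the controls (log2 0.07 ± 0.12), and FNIP2 had 42.9, 38.6 and 33.4 CPM with lactate and 28.6, 43.3 and 30.6 CPM in the controls (log2 0.14 ± 0.15). In DLD1 the groups overlapped for each of these but MAP1LC3B. None of these 4 effects was shown to differ between the lines by the edgeR fit used throughout, with differences between -0.43 and -0.20. Their adjusted p values were 0.447 for MAP1LC3B, 0.160 for GABARAPL1, 0.281 for UVRAG and 0.344 for FNIP2. The difference for GABARAPL1 was called under 3 of 20 alternatives (DESeq2, removal of the GC and length trend, and without DLD1 controls 2 and 3), with adjusted p from 0.00454 to 0.351, and those of the other 3 genes under 0.

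Without lactate, the lines differed in more of these genes than lactate changed in either of them. Comparing DLD1 controls with SW480 controls, 32 of the 39 genes were called (82.1%), 10 higher and 22 lower in DLD1, against 70.8% of all tested genes, 33.6% higher and 37.3% lower. Their median log2 fold change was -0.38, against -0.05 over all tested genes. Line and any difference in when or how the lines were handled cannot be told apart.

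All 3 MiT/TFE factor genes were called lower in DLD1, where 37.3% of all tested genes were. TFEB had 0.943, 0.670 and 0.937 CPM in the DLD1 controls, against 10.5, 9.92 and 10.2 CPM in the SW480 controls, a 12.3-fold lower level (log2 -3.62 ± 0.22 SE, adjusted p = 9.83e-10). With lactate, DLD1 had TFEB at 0.787, 0.670 and 1.19 CPM, TFE3 at 69.3, 56.1 and 64.2 CPM, MITF at 21.5, 19.4 and 21.0 CPM and GPNMB at 0.182, 0.413 and 0.221 CPM, and each overlapped the DLD1 controls. TFE3 had 53.6, 49.2 and 70.8 CPM in the DLD1 controls, against 131, 129 and 133 CPM in the SW480 controls (log2 -1.25 ± 0.12 SE, adjusted p = 3.18e-07). MITF had 20.6, 26.3 and 21.0 CPM in the DLD1 controls, against 38.9, 31.6 and 38.99 CPM in the SW480 controls (log2 -0.76 ± 0.14 SE, adjusted p = 1.54e-04). Per kilobase the order TFE3, MITF, TFEB was the same in DLD1 as in SW480, at 16.9 ± 3.33, 4.71 ± 0.662 and 0.361 ± 0.0663 CPM per kb in the DLD1 controls (SD, n = 3).

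GPNMB, RRAGD and CD68 were the other genes with a gap of this size between the lines. GPNMB had 0.0993, 0.268 and 0.260 CPM in the DLD1 controls, against 3.22, 3.01 and 4.05 CPM in the SW480 controls (log2 -4.10 ± 0.37 SE, adjusted p = 1.12e-07), on few counts in DLD1. RRAGD was 10.4-fold lower in DLD1 (log2 -3.38 ± 0.15 SE, adjusted p = 2.49e-11) and CD68 9.27-fold lower (log2 -3.21 ± 0.26 SE, adjusted p = 3.23e-08). The melanocyte markers, of interest because MITF and GPNMB are abundant in pigment cells, summed to 4.48 to 5.38 CPM in the DLD1 lactate libraries, 3.55 to 4.58 CPM in the DLD1 controls, 3.92 to 4.34 CPM in the SW480 lactate libraries and 2.57 to 5.04 CPM in the SW480 controls, with TYR at 0 in every library. Single markers went opposite ways. PMEL was at 3.15 to 4.99 CPM in the DLD1 libraries and at 0.708 to 2.135 CPM in the SW480 libraries. TYRP1 was at 0 in the DLD1 libraries and at 0.925 to 2.76 CPM in the SW480 libraries.

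The lysosomal enzymes differed in both directions, 3 higher and 5 lower in DLD1 of 10, against 33.6% and 37.3% of all tested genes. Higher in the DLD1 controls than in the SW480 controls were TPP1, a peptidase lost in a childhood storage disease (4.69-fold), HEXA, the alpha subunit of beta-hexosaminidase (2.88-fold), and CTSD (2.50-fold). Lower in DLD1 were CTSZ (5.57-fold) and the cysteine protease gene CTSL (5.01-fold), with CTSB, GLA and PSAP lower by less than that. Among membrane and cholesterol genes, NPC2 was 3.58-fold higher in DLD1 while its partner NPC1 was 1.47-fold lower (log2 -0.55 ± 0.10 SE, adjusted p = 2.35e-04), and 6 of the 8 were lower in all. MCOLN1 was 1.59-fold, LAMP2 1.48-fold and LAMP1 1.29-fold lower. Of the autophagy genes, GABARAPL1 was 1.99-fold higher in DLD1 and the other 5 were lower, SQSTM1 by 2.14-fold and MAP1LC3B by 1.78-fold.

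Of the 7 V-ATPase subunits, 4 were called, where 70.8% of all tested genes were, with log2 fold changes of all 7 between -0.38 and 0.63. ATP6V1A and ATP6V1B2 were 1.54-fold and 1.47-fold higher in DLD1, ATP6V0A1 was 1.18-fold higher (adjusted p = 0.0488) and ATP6V0D1 was 1.30-fold lower. The call of ATP6V0A1 held under 7 of 21 alternatives, with adjusted p up to 0.149. UVRAG, 1.26-fold lower in DLD1 among the autophagy genes, held under 15. ATP6V0C, ATP6V1C1 and ATP6V1H were not called, nor were the enzyme genes CTSA and GAA or the membrane gene CD63. In the folliculin and Rag module, RRAGC was 1.36-fold and FNIP2 1.72-fold higher in DLD1, FLCN was 1.65-fold lower, and FNIP1 was not called.

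**Figure D4:**
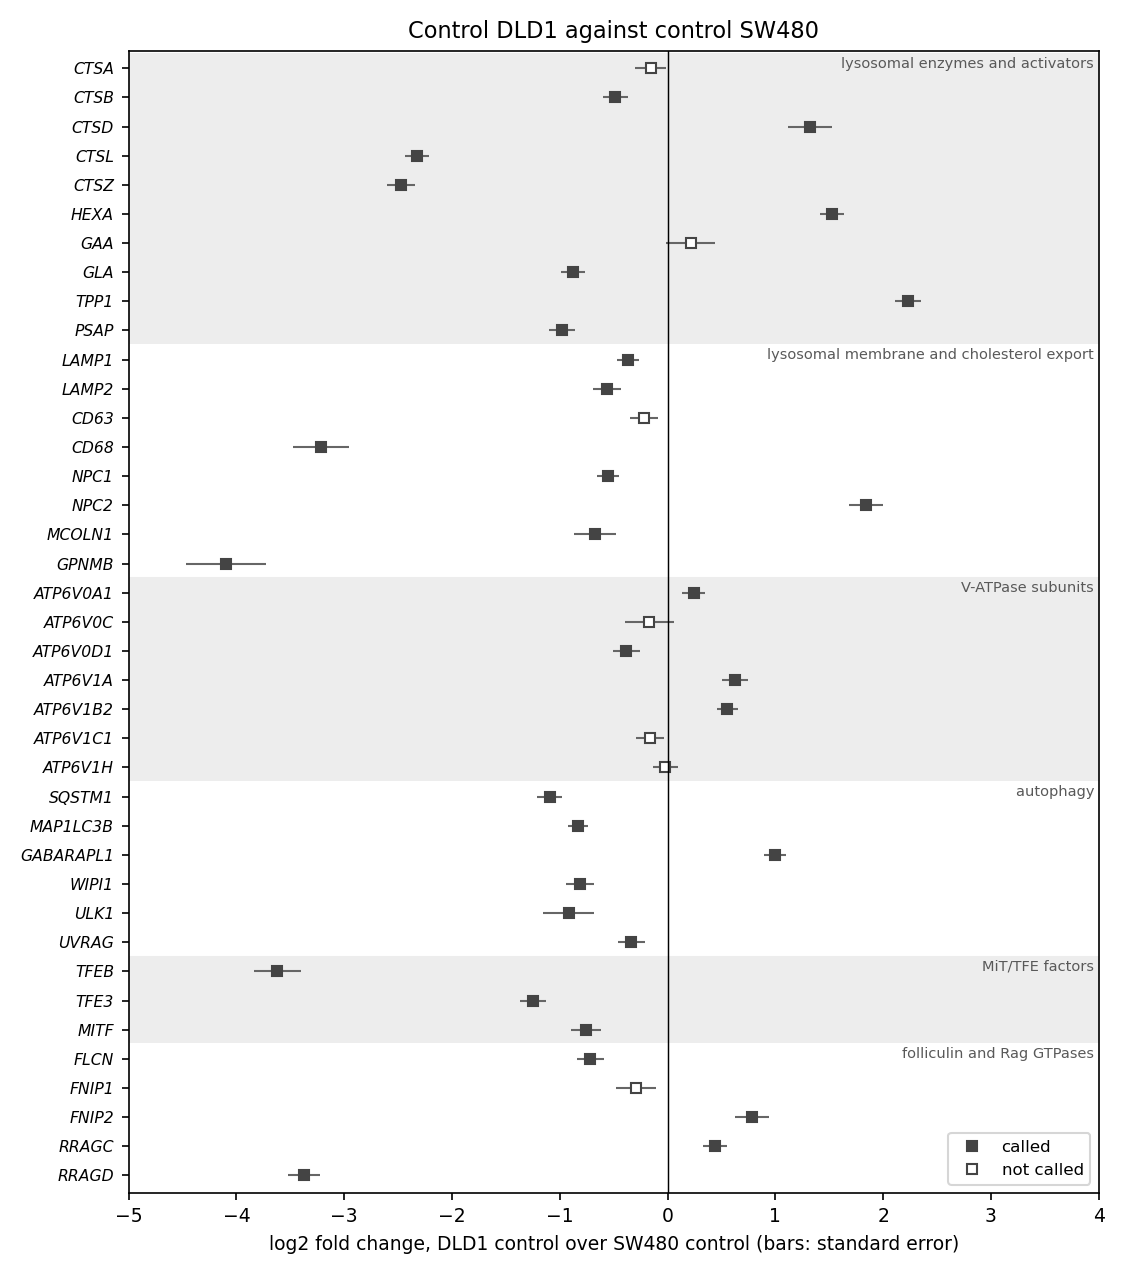
Log2 fold change of DLD1 controls over SW480 controls for the 39 genes, with standard errors, grouped by role. Filled squares are the 32 called genes: TFEB, RRAGD, CD68 and GPNMB lie below -3, TPP1 lies furthest to the right, and the 7 V-ATPase subunits shown stay within 1 of 0.

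Per kilobase of transcript, the most abundant of the 39 genes in the DLD1 controls were CTSD at 330 ± 124 CPM per kb, CD63 at 262 ± 55.6 and PSAP at 145 ± 26.8 (SD, n = 3). In the SW480 controls they were CD63 at 291 ± 12.3, SQSTM1 at 278 ± 18.9 and PSAP at 273 ± 9.67 CPM per kb, which do not differ beyond their spread. GPNMB was the lowest in both, at 0.0760 ± 0.0346 CPM per kb in the DLD1 controls and 1.24 ± 0.200 in the SW480 controls.

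The rest of the pathway was read from 5 lists with 143 further genes, of which 138 were tested. In SW480, 9 were called (6.52%), 5 higher and 4 lower, below the 12.4% of all tested genes. In DLD1 the edgeR fit used throughout called 0, against 0.381% of all tested genes, with 25 at an unadjusted p under 0.05, against 18.5%. DESeq2 called 4 in DLD1, against 3.89% of all genes. Without DLD1 control 3, 42 of the 138 were called in DLD1, 24 higher and 18 lower, where 21% of all genes were called. Among other V-ATPase subunits 0 of 16 rose and 2 fell in SW480. The subunits were ATP6V0E1, at 129.9 ± 1.82 CPM with lactate and 172 ± 7.07 CPM in the controls (log2 -0.38 ± 0.11 SE, adjusted p = 0.0323), and its relative ATP6V0E2 (log2 -0.49 ± 0.15 SE, adjusted p = 0.0467). Of 33 other hydrolases, MANBA (beta-mannosidase, log2 0.46) and IDS (iduronate sulfatase, 0.37, with an adjusted p just under 0.05) rose and CTSC (cathepsin C, -0.41) fell. Of 27 other membrane and sorting genes 0 were called by the edgeR fit used throughout, 4 had an unadjusted p under 0.05 and DESeq2 called LAPTM4A, lower with lactate.

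Of 39 other autophagy genes, 2 rose in SW480 (5.13%), against the 6.83% of all tested genes that rose. BNIP3L, which marks mitochondria for autophagy, had 399 ± 35.1 CPM with lactate and 220.2 ± 32.8 CPM in the controls (log2 0.88 ± 0.13 SE, adjusted p = 6.68e-04), and OPTN, optineurin, rose by a log2 of 0.31 (adjusted p = 0.0340). Of 23 other genes of the Rag, mTORC1 and nutrient-sensing machinery, SESN2, a leucine sensor upstream of mTORC1, had 73.6 ± 9.80 CPM with lactate and 46.4 ± 0.234 CPM in the controls (log2 0.68 ± 0.12 SE, adjusted p = 0.00223). DEPDC5, a subunit of a complex that restrains the Rag GTPases, fell by 0.37 on the log2 scale (adjusted p = 0.0469). BNIP3L, SESN2 and MANBA were called under all 21 alternatives, CTSC under 18, ATP6V0E1 under 15, ATP6V0E2 and OPTN under 12 each, IDS under 9 and DEPDC5 under 8. The count of the 5 lists in SW480 ran from 3 without SW480 lactate 2, SW480 lactate 3 or SW480 control 1 to 40 after removal of the GC and length trend. In these fits, in that order, 4.75%, 6.7%, 3.83% and 28.5% of all genes were called.

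Between the lines, 92 of the 138 were called in DLD1 controls against SW480 controls (66.7%), 37 higher and 55 lower in DLD1, where 70.8% of all tested genes were called. Among the other V-ATPase subunits 10 of 16 were called, all lower in DLD1, with a median log2 fold change of -0.41 over the 16. ATP6V1B1, a V1 subunit known from the kidney and inner ear, had the lowest value, at 0.0389 ± 0.0348 CPM in the DLD1 controls and 4.82 ± 1.04 CPM in the SW480 controls (SD, n = 3 each), on few counts in DLD1. ATP6AP1, an accessory subunit, had 71.7 ± 16.4 CPM in the DLD1 controls and 176 ± 1.64 CPM in the SW480 controls (log2 -1.36 ± 0.14 SE, adjusted p = 6.04e-07). Both were chosen after their values were seen.

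**Figure D5:**
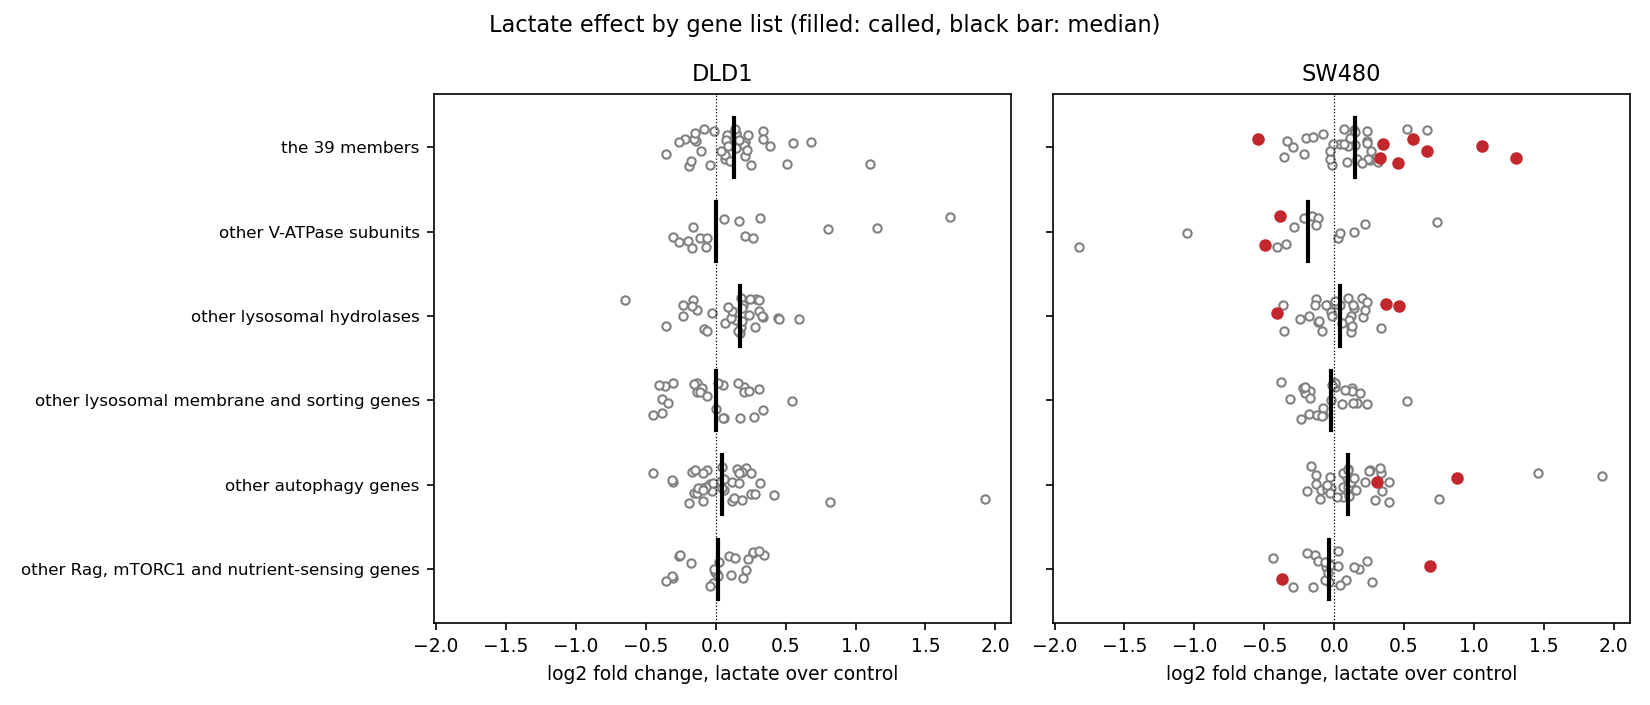
Log2 fold change of lactate over control for the 39 genes and for the 5 lists of other pathway genes, in DLD1 (left) and SW480 (right), 1 point a gene, filled where called, with the list median as a black bar. List medians lie between -0.19 and 0.17 over both lines, and the filled points in SW480 all lie below 0 for other V-ATPase subunits and all above 0 for other autophagy genes.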

How the data were processed

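RNA was measured in 12 libraries. The table the authors deposited holds whole-number read counts for gene symbols, not normalized, with a column for each library. Alignment used HISAT2 and GRCh38, per the submitters' processing notes. The version of HISAT2, how reads were counted, on which annotation and whether by strand is not given in the sources used here. By title, all 12 columns matched a library, and 0 columns were not used.

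From these counts, genes were filtered with filterByExpr by group, which left 17572 of 54261, scaled by TMM and fitted in edgeR 4.0.16 under R 4.3.3 (limma 3.58.1) with 1 robust quasi-likelihood model over all 12 libraries and 1 mean per group. Two-sided tests gave lactate minus control within a line, the DLD1 lactate effect minus that of SW480, and DLD1 control minus SW480 control, with Benjamini-Hochberg adjustment over all tested genes and calls at adjusted p under 0.05. Dividing the size of a log2 fold change by the root of its F statistic gave its standard error. CPM uses plain library totals, so it can differ slightly from the TMM-scaled fold change. Transcript length and GC content come from GENCODE v29 and gene positions and promoters from RefSeq on GRCh38.p14.

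Every gene of the 39 called in a lactate comparison or in the difference, the MiT/TFE factors and GPNMB are given per library, the others by range and by the most abundant of each role; of the other lists, up to 4 called genes with the smallest p are named. The members, the lists and the tests were chosen with earlier results of these data known. Alternatives tried were scaling by upper quartile or by median of ratios, no filter or at least 1 CPM in 3 libraries, DESeq2 1.42.0, replicate number as a block, only the 6 libraries compared, removal of a GC content and length trend (natural splines with 5 degrees of freedom), and leaving out each library.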

Additional observations from a re-analysis of the deposited data

Results flagged for a closer look

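NPC1 was singled out because the test of the difference itself found its lactate effect unequal in the lines: the DLD1 effect minus the SW480 effect was -0.72 on the log2 scale (edgeR, adjusted p = 0.0373). Its values by library stand in the report, and the difference ran from -0.80 to -0.62 over 20 alternatives, of which 12 called it.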

How the results depend on the processing

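The limits are those of 3 libraries a group, of DLD1 controls that spread along GC content, and of counting without a known strand setting. Over all alternatives tried, 0 called genes of the 39 reversed direction. For lactate in SW480, the count of all genes called was 2183, and 4783 with only the 6 libraries compared, 5002 after removal of the GC and length trend and 4722 without DLD1 controls 2 and 3, an alternative chosen after seeing the data, in which the lone DLD1 control is assumed to vary like the other groups. The count of the 39 was then 16, 18 and 16 in place of 8, and each of these held all 8; with no filter the 8 called held 6 of them. For lactate in DLD1, all genes called were 67, and 855 with no filter, 684 with DESeq2, 184 with the replicate block, 1 with only the 6 libraries, 576 after trend removal and 589 without DLD1 controls 2 and 3. Of the 39, 4 were called with no filter, 2 with DESeq2, 2 with the block (CD68 and ULK1), and 1 each after trend removal and without DLD1 controls 2 and 3. For the difference of effects, 128 genes became 837 with no filter, 719 with DESeq2, 274 with the block, 1397 after trend removal and 627 without DLD1 controls 2 and 3, and the 1 called of the 39 became 2 with no filter, 5 with DESeq2, 5 after trend removal and 4 without those controls. Leaving out 1 library at a time, SW480 calls ran from 689 (without SW480 control 1) to 4347 (without DLD1 control 2) over all genes and from 4 to 15 over the 39, DLD1 calls from 3 (without DLD1 control 1) to 3791 (without DLD1 control 3) and from 0 to 14, the difference from 9 (without SW480 control 1) to 1508 (without DLD1 control 3) and from 0 to 4, and the control comparison from 11736 to 13260 and from 29 to 34. The cause of these shifts was not tested. Same-numbered libraries deviated together weakly at most (correlations of 0.102, -0.000225 and 0.173 in SW480, and -0.0708, 0.0620 and 0.116 in DLD1). For number 3 this was above the best correlation with another number in both lines (-0.0309 in SW480 and 0.00473 in DLD1). For numbers 1 and 2 it was below that in both lines. The labels do not say whether the numbers pair the samples, and with 3 libraries a group these correlations cannot decide it. With the replicate block, 2345 genes and 9 of the 39 were called in SW480, 1 of the 39 for the difference and 31 between controls.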
